A study of Schizosaccharomyces pombe with 17 samples.

Results

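In the double mutant rrp6-cat dis3-4 of fission yeast, Schizosaccharomyces pombe, both exonucleases of the nuclear exosome carry a mutation. At 30 °C, 108 mRNAs were more abundant in this strain than in rrp6-cat at 32 °C or in dis3-4 at 30 °C. They were chosen from the 14 polyA-selected RNA libraries of the study, which cover 7027 features, of which 5169 remain, called mRNA IDs below, once the ID classes of non-coding and mitochondrial RNAs are set aside. The choice used a log2 difference, called d below, which is the log2 of a group's mean FPKM plus 1 minus the same for wild type. FPKM is a fragment count scaled to the length of the transcript and the size of the library. An mRNA was a member when d was at least 1 in rrp6-cat dis3-4 at 30 °C and under 0.5 in both rrp6-cat and dis3-4 at 30 °C. Both libraries of the double mutant at 30 °C also had to lie above all 6 libraries of wild type, rrp6-cat and dis3-4 at 30 °C. The groups hold 2 libraries each. The double mutant rrp6-cat dis3-4 and the single mutant dis3-4, a temperature-sensitive allele, were sampled at 23 °C and after a shift of 1 h to 30 °C. The libraries labelled rrp6Δ, rrp6-cat and wild type were all from cultures at 32 °C. Those labelled rrp6Δ had no part in the choice, and some members had a higher mean there than in the double mutant at 30 °C. Rich YES medium and growth to mid-log phase were common to the groups, and each genotype is 1 named strain. The nature of the rrp6-cat and dis3-4 lesions is not stated in the labels, and wild type and rrp6-cat were sampled at 32 °C only. Growth temperature and genotype therefore cannot be told apart where a strain that carries dis3-4 is set against wild type or rrp6-cat.

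The nuclear exosome is a barrel of inactive subunits with 2 catalytic ones, Dis3, which is essential and also acts in the cytoplasm, and Rrp6, which is nuclear. It trims the precursors of ribosomal RNA, snoRNAs and snRNAs, and it degrades antisense and intergenic transcripts, faulty pre-mRNAs and some intact mRNAs. In fission yeast the best known of these mRNAs are meiotic ones that the RNA-binding protein Mmi1 marks for removal in growing cells. Of 11 meiotic mRNAs listed here as Mmi1 targets, 10 were among the features and 0 were members, where members were 2.09% of all mRNA IDs. The list is short and the choice leaves out mRNAs raised in a single mutant, so this count says nothing about Mmi1 targets.

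Of the 108 members, 107 had their systematic ID in the reference annotation, 106 of them as protein-coding genes and 90 with a gene symbol. The limit for testing, an average of 1 FPKM or more across all 14 libraries, was reached by 103 members. The 5 that did not reach it were SPBCPT2R1.10, noc12, rec15, SPBPB2B2.07c and otg2. Promoter stretches are shown for 4 of the 7 members that were called in the comparison that did not choose them, because these hold a regulatory motif on the strand of the gene. Another of the 7, vtc2, holds GTAAACA on the other strand. The sequences are from the RefSeq assembly ASM294v3, on the strand of the gene, 5′ to 3′, and the capitals mark the core of the Atf1 cyclic-AMP response element, TGACGT, in cgs1 and SPBC1289.14, and the core of the forkhead element, GTAAACA, in sst1 and SPCC569.01c.
cgs1: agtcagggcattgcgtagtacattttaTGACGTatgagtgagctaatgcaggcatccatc
SPBC1289.14: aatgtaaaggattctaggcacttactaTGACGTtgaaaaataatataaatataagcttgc
sst1: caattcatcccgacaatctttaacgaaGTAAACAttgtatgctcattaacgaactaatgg
SPCC569.01c: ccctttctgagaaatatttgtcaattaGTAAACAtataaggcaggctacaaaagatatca
The motif starts 63 bases before the annotated gene start in cgs1 on chromosome I, 48 bases before it in SPBC1289.14 on chromosome II, 146 bases before it in sst1 on chromosome I and 117 bases before it in SPCC569.01c on chromosome III.

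The libraries differ in depth and wild type least resembles its own replicate. Judged by the smallest step by which low FPKM values differ, 1 fragment of a transcript of 1 kb is worth 0.434 to 1.95 FPKM, and wild type replicate 2 has 0.245 times the depth of wild type replicate 1. The mean square of log2 values within a group was 0.663 in wild type and 0.166 to 0.334 in the other groups. The rrp6 mRNA had 179 and 128 FPKM under the rrp6Δ label, against 95.4 and 43.2 FPKM in wild type, so the deletion does not show in this gene's values and these libraries are called by their label. The dis3 mRNA had 71.4 and 71.6 FPKM in the double mutant at 30 °C and 83.3 and 66.1 FPKM in dis3-4 at 30 °C, against 64.7 and 37.7 FPKM in wild type.

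The values that chose the members follow as a description, with no test. The median member d was 1.21 in the double mutant at 30 °C, 0.003 in dis3-4 at 30 °C and 0.29 in rrp6-cat. Each member was above both single mutants, with a smallest d difference of 0.57 from dis3-4 at 30 °C and of 0.58 from rrp6-cat. A d of at least 1 at 30 °C was met by 496 of the 5169 mRNA IDs (9.60%), the limits on the single mutants left 111 of these, and the order of the libraries left 108. Most rises of this size in the double mutant were thus outside the members because a single mutant also reached a d of 0.5. Just inside the limit of 1 were prp10 at 1.00, dip2 at 1.00 and alg11 at 1.01, and just outside it were rpc34 at 0.996, mcm3 at 0.996 and SPAC3A11.11c at 0.995. At the limit of 0.5 in rrp6-cat, mtf1 was inside at 0.49 and taf9 outside at 0.503. At that limit in dis3-4 at 30 °C, esf1 was inside at 0.47 and cox1102 outside at 0.504. The choice also leaves out tgp1, pho84 and shu1 by name, none of which met its limits. Their d values in the double mutant at 30 °C were 3.16 for tgp1, 0.56 for pho84 and 4.78 for shu1, and tgp1 had 1.65 in dis3-4 at 30 °C while shu1 had 1.64 in rrp6-cat.

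**Figure D1:**
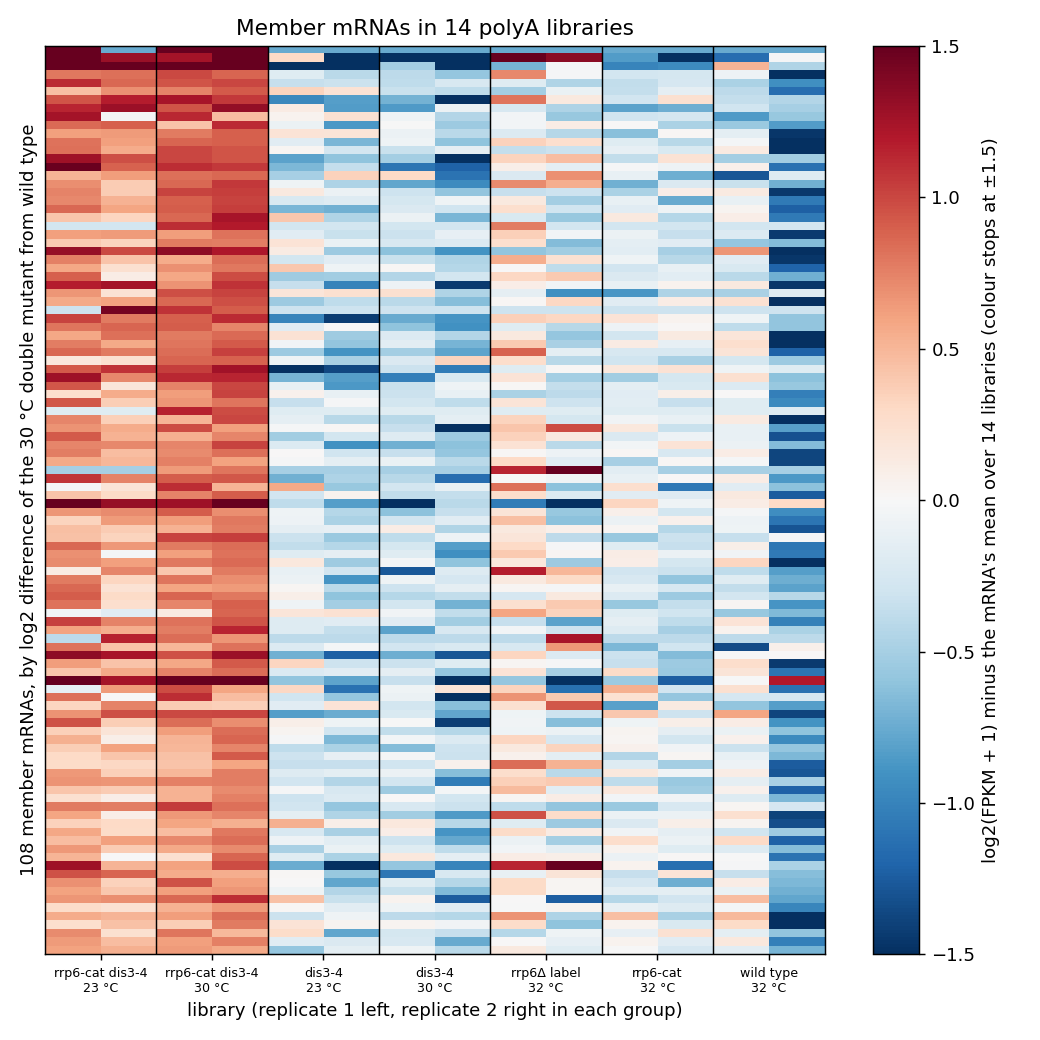
Each line across is 1 of the 108 member mRNAs, sorted by d at 30 °C, and each column is 1 of the 14 libraries. Colour gives log2(FPKM + 1) minus the mRNA's own mean over the libraries: the 4 columns of the double mutant are mostly red, and wild type replicate 2, at the right edge, is the darkest blue column, with members a median of 0.78 log2 units below wild type replicate 1.

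The 6 libraries of the double mutant at 23 °C, dis3-4 at 23 °C and rrp6Δ played no part in the choice, though the double mutant and dis3-4 libraries come from the strains that did. At 23 °C most members were also higher in the double mutant than in dis3-4. Both double mutant libraries at 23 °C lay above both dis3-4 libraries at 23 °C for 94 of the 108 members, against 33.2% of the 4582 mRNA IDs with a mean of at least 1 FPKM. They lay below both for 2 members, against 20.0% of those mRNA IDs. The member median of the log2 difference between these groups was 0.82, where the median over all features tested was 0.10, and it was at least 1 for 36 members, against 5.67% of all mRNA IDs. All 4 double mutant libraries were above the other 10 for 70 members, against 5.50% of mRNA IDs with a mean of at least 1 FPKM, a count in which the libraries at 30 °C were fixed by the choice. In sum over the 108 members the double mutant at 23 °C held 7176 and 6707 FPKM, against 4368 and 3746 FPKM in dis3-4 at 23 °C. In polyA RNA from whole cultures, more RNA per cell and more cells with that RNA cannot be told apart.

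For single genes the 2 libraries of a group give little power. Across 6083 features tested with limma (Benjamini-Hochberg adjusted p under 0.05, two-sided), 44 rose in the double mutant against dis3-4, both at 23 °C, which is 0.723%, and 16 fell, which is 0.263%. Of the members, 7 rose and 0 fell. At an unadjusted p under 0.05 there were 50 members, and 766 of all features. The 7 members were SPCC569.01c, oca2, sst1, SPBC1289.14, vtc2, prp11 and cgs1. Labels do not say whether the 2 libraries of a group came from separate cultures, so these p-values measure the spread between the libraries only.

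The mRNA of oca2 (SPCC1020.10, chromosome III), a serine/threonine protein kinase, had 65.5 and 55.6 FPKM in the double mutant at 23 °C, against 15.6 and 11.3 FPKM in dis3-4 at 23 °C. It rose by 2.102 on the log2 scale (SE 0.27, limma adjusted p = 0.00376). Its level in the double mutant at 30 °C was 60.5 and 70.5 FPKM, and it had 18.5 and 16.8 FPKM in dis3-4 at 30 °C, 41.2 and 39.8 FPKM in the libraries labelled rrp6Δ, 37.0 and 33.2 FPKM in rrp6-cat, and 30.7 and 20.9 FPKM in wild type. The dis3-4 libraries were thus the lowest of all and the double mutant libraries the highest, with wild type between them.

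The same order held for SPCC569.01c (chromosome III), which the annotation calls an uncharacterized protein. It had 37.5 and 41.9 FPKM in the double mutant at 23 °C, against 6.00 and 6.88 FPKM in dis3-4 at 23 °C, and it rose by 2.45 on the log2 scale (SE 0.30, limma adjusted p = 0.00336). The 30 °C values were 40.6 and 47.7 FPKM in the double mutant, against 15.2 and 8.82 FPKM in dis3-4. Wild type had 18.4 and 17.0 FPKM, all 4 dis3-4 libraries were below it and all 4 double mutant libraries above it.

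The calcium permease mRNA sst1 (SPAC521.04c, chromosome I) had 36.2 and 33.8 FPKM in the double mutant at 23 °C, against 7.93 and 5.31 FPKM in dis3-4 at 23 °C. It rose by 2.26 on the log2 scale (SE 0.35, limma adjusted p = 0.0102). Wild type had 13.7 and 13.8 FPKM, above the 4 dis3-4 libraries and below the 4 double mutant libraries. A highly expressed gene, SPAC521.03, overlaps sst1 on the other strand, with means of 209 FPKM in the double mutant at 30 °C and 965 FPKM in wild type. Its own log2 difference between the double mutant and dis3-4 at 23 °C was 1.05. The library kit keeps the strand, but whether the authors counted by strand is not stated in the labels, so reads of the overlap may have been split between these genes.

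SPBC1289.14, which encodes a protein with the product name adducin, was low outside the double mutant. It had 11.1 and 11.3 FPKM in the double mutant at 23 °C and was listed at 0 in both dis3-4 libraries at 23 °C. A listed 0 in files of this kind can be a failed estimate. The fitted log2 change of 3.61 (SE 0.61, limma adjusted p = 0.0197) depends on the added 1 FPKM and is no estimate of a fold. It had 0.919 and 2.05 FPKM in the libraries labelled rrp6Δ, 0.568 and 0.622 FPKM in rrp6-cat, and 3.43 and 1.28 FPKM in wild type. The 4 double mutant libraries spanned 11.1 to 11.8 FPKM, and no other library passed 3.43 FPKM.

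The mRNA of cgs1 (SPAC8C9.03, chromosome I), the regulatory subunit that holds protein kinase A inactive when cyclic AMP is low, had 41.9 and 49.6 FPKM in the double mutant at 23 °C, against 10.4 and 11.6 FPKM in dis3-4 at 23 °C. It rose by 1.95 on the log2 scale (SE 0.41, limma adjusted p = 0.0481). The libraries labelled rrp6Δ were in between at 37.9 and 23.7 FPKM, and wild type had 16.5 and 15.4 FPKM.

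The mRNA of vtc2 (SPAC14C4.11, chromosome I), of the complex that makes polyphosphate and moves it into the vacuole, had 108 and 107 FPKM in the double mutant at 23 °C, against 51.1 and 41.4 FPKM in dis3-4 at 23 °C. It rose by 1.21 on the log2 scale (SE 0.23, limma adjusted p = 0.0322). No library outside the double mutant passed 63.8 FPKM, the level of wild type replicate 1.

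The mRNA of prp11 (SPCC10H11.01, chromosome III), an RNA helicase of pre-mRNA splicing, had 62.4 and 51.7 FPKM in the double mutant at 23 °C, against 21.9 and 22.2 FPKM in dis3-4 at 23 °C. It rose by 1.32 on the log2 scale (SE 0.26, limma adjusted p = 0.0369). Its 10 libraries outside the double mutant lay between 14.4 and 24.6 FPKM, so this mRNA was level in the single mutants and wild type, where oca2, SPCC569.01c and sst1 were low in dis3-4.

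**Figure D2:**
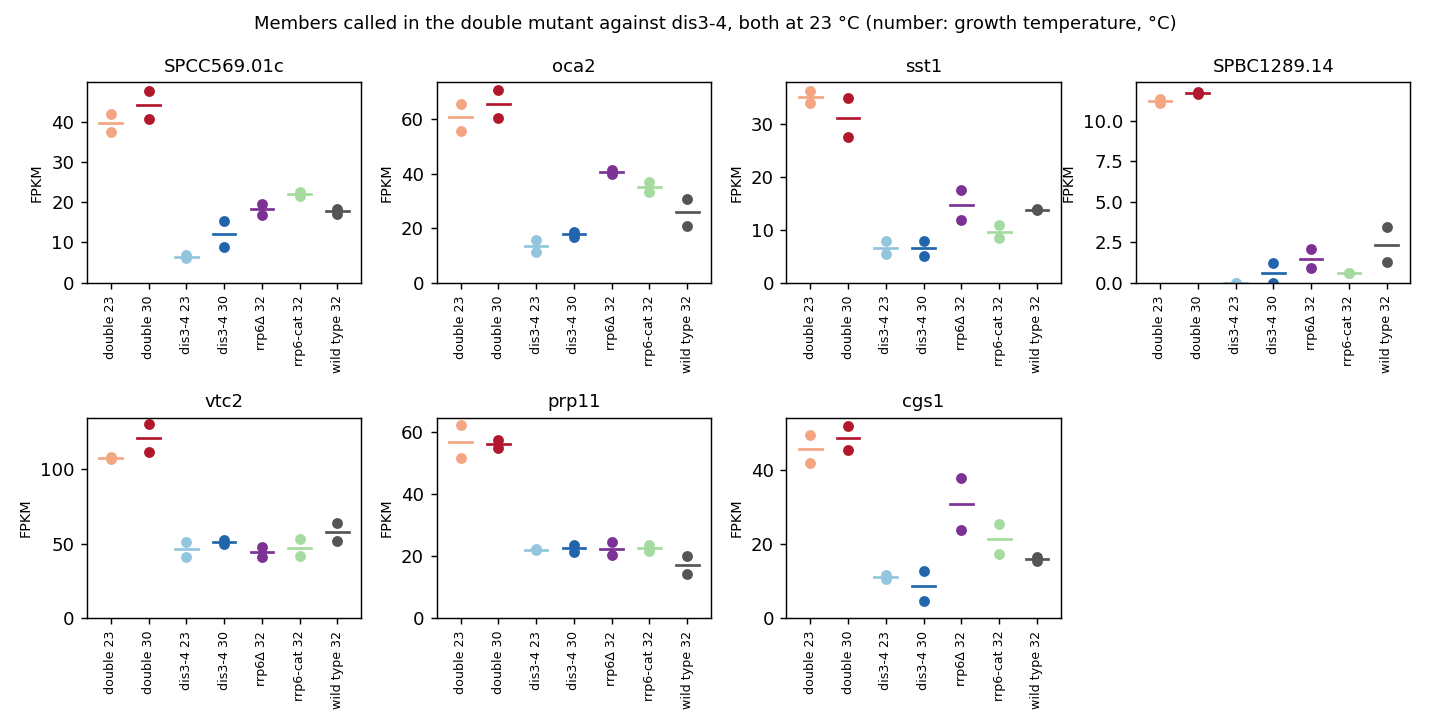
FPKM of the 7 called members in every library. Points are libraries, bars are means of 2, and the number after each group name is its growth temperature; in all 7 panels the 4 double mutant points at the left lie above the 10 other points.

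These calls rest on few libraries. The fit shares its spread with the 8 libraries that chose the members, and using only the 6 others 7 members were again called, 5 of them the same, while vtc2 (limma adjusted p = 0.0532) and prp11 (limma adjusted p = 0.0575) were not. The call of cgs1 was lost without the filter on low values (limma adjusted p = 0.11) and with 0.1 in place of 1 FPKM added (limma adjusted p = 0.07). Without 1 of the 4 libraries the log2 change stayed between 2.37 and 2.54 for SPCC569.01c, 1.89 and 2.31 for oca2 and 2.01 and 2.51 for sst1, with limma adjusted p of 0.0295 to 0.0524, 0.0155 to 0.073 and 0.0392 to 0.148 in that order. For SPBC1289.14, vtc2, prp11 and cgs1 each of the 4 libraries ended the call when left out, with limma adjusted p of 0.0846 to 0.323 among them.

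**Figure D3:**
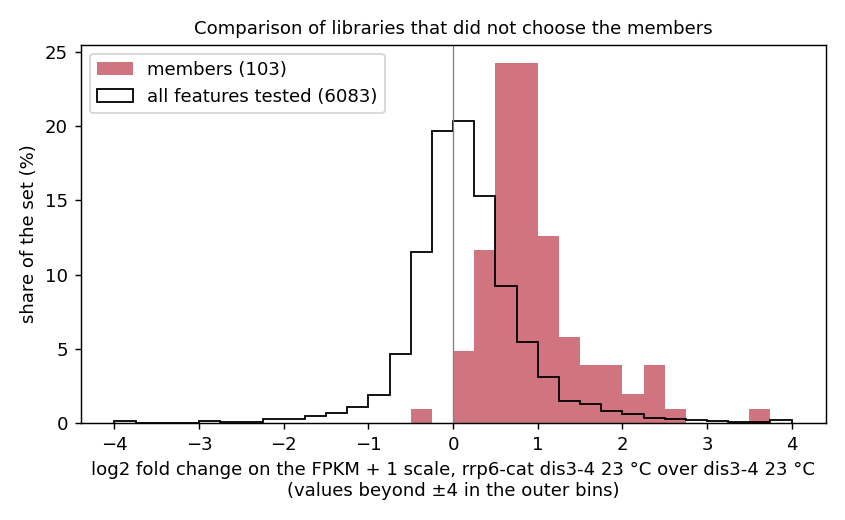
Share of the 103 testable members (filled) and of all 6083 features tested (line) at each log2 fold change of the double mutant over dis3-4, both at 23 °C. The members lie to the right of all features, around a median of 0.82, and 1 of them, SPBC660.17c, is below 0.

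Many members encode proteins that make ribosomes, a grouping by product name that was made after the values were seen and so was not tested. In all 18 of the 106 annotated members (17.0%) act in ribosome production, against 113 of all 5106 protein-coding genes (2.21%). This share depends on the wild type libraries. Of the 18, only rrp1402 also met the limits of the choice with each wild type library alone. The 18 include the rRNA methyltransferase spb1, the RNA polymerase I large subunit nuc1 and parts of the U3 snoRNP machinery that cuts the small subunit rRNA, such as sof1, utp3, utp10, rrp5, rrp9, nop14, pwp2 and dip2. The others were noc201, nat10, sqt1, esf1, ppp1, mis3, rrp1402 and rei1. Others, such as the GTPase grn1, the helicases dbp3, rrp3 and prp43, the RNA-binding proteins puf6 and mrd1, the Brix protein rpf2 and the giant ATPase mdn1, also work on ribosome precursors, in budding yeast for puf6 and dbp3, but carry other product names.

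The mRNA of spb1 (SPAC1687.11) had 119.6 and 123 FPKM in the double mutant at 23 °C, against 60.2 and 51.7 FPKM in dis3-4 at 23 °C. The double mutant libraries were the higher ones, as they were for 94 of the 108 members. The log2 change of 1.10 (SE 0.47) missed the threshold at a limma adjusted p of 0.337. In the double mutant at 30 °C it had 137 and 127 FPKM, and wild type had 65.2 and 16.3 FPKM. The mRNA of sof1 (SPBC1A4.07c) had 72.2 and 60.2 FPKM in the double mutant at 23 °C, against 24.2 and 23.6 FPKM in dis3-4 at 23 °C, a log2 change of 1.43 (limma adjusted p = 0.0946). The mRNA of nuc1 (SPBC4C3.05c) had 101 and 83.6 FPKM in the double mutant at 23 °C, against 57.7 and 46.4 FPKM in dis3-4 at 23 °C, a log2 change of 0.82 (limma adjusted p = 0.49). Of the 18, none was called, all had a log2 change above 0, and their median was 0.79. The other annotated members tested had a median of 0.82, and all but SPBC660.17c were above 0, so the 18 do not stand apart from them. Over all 6083 features tested, 3562 were above 0. The 84 tested genes of the same product names outside the members had a median of 0.33, with 70 above 0.

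These mRNAs also differed between the wild type libraries. Wild type replicate 2 was below replicate 1 by a median of 1.25 log2 units over the 18 and of 1.14 over the 84 others, where the median over all features tested was 0.53. The d of these genes therefore differs between the wild type libraries. The limits of the choice set the double mutant at 30 °C apart from both single mutants, so the 18 give no separate evidence there. Their median difference from rrp6-cat was 0.88 and from dis3-4 at 30 °C 1.12, against 0.26 and 0.70 in the 84 others.

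Some members named by the size of d alone differed little between the double mutant and dis3-4 at 23 °C. The GTPase mRNA grn1 (SPBC26H8.08c) had 130.4 and 153 FPKM in the double mutant at 23 °C, against 119.9 and 110.1 FPKM in dis3-4 at 23 °C, a log2 change of 0.29 (limma adjusted p = 0.727). For puf6 (SPCP1E11.11) the values were 142 and 144 FPKM in the double mutant, against 106 and 106 FPKM in dis3-4, with a change of 0.43 (limma adjusted p = 0.697). For dbp3 (SPBC17D1.06) they were 166 and 129.5 FPKM, against 110.2 and 93.4 FPKM, with a change of 0.53 (limma adjusted p = 0.662). In each of these 3 genes the libraries of the double mutant were still the higher ones, as for 94 of the 108 members. Their d in the double mutant at 23 °C was 1.30 for grn1, 1.29 for puf6 and 1.02 for dbp3. In dis3-4 at 23 °C it was 0.9996, 0.86 and 0.49 in that order, so both strains were above wild type before the shift. Of the other ribosome members, rrp1402 had a log2 change of 0.32, dip2 one of 0.75 and esf1 one of 0.88, none of them called.

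Members with product names of signalling, picked out after the values were seen, included the phosphorelay sensor kinase mak1, the histidine-containing phosphotransferase mpr1 and the protein kinase ppk1, and none of these 3 passed the threshold. The mRNA of mpr1 (SPBC725.02) had 71.3 and 57.5 FPKM in the double mutant at 23 °C, against 16.2 and 18.7 FPKM in dis3-4 at 23 °C, a log2 change of 1.82 (SE 0.39) that narrowly missed the threshold (limma adjusted p = 0.0509). The libraries labelled rrp6Δ had 36.7 and 40.1 FPKM, and wild type 20.1 and 19.9 FPKM. The mRNA of mak1 (SPAC1834.08) had 42.8 and 37.0 FPKM in the double mutant at 23 °C, against 17.6 and 17.0 FPKM in dis3-4 at 23 °C, with a log2 change of 1.16 (limma adjusted p = 0.193). The kinase mRNA ppk1 (SPAC110.01) had 32.7 and 21.2 FPKM, against 6.55 and 8.39 FPKM, with a change of 1.70 (limma adjusted p = 0.0842). In all 3 both double mutant libraries lay above both dis3-4 libraries at 23 °C. That order was shared by 94 of the 108 members and by 33.2% of mRNA IDs with a mean of at least 1 FPKM.

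Phosphate handling gave 4 members, a grouping made after the values were seen: vtc2, its partner vtc4, the phosphate transporter pho841 and the ubiquitin ligase pqr1. The mRNA of vtc4 (SPCC1322.14c) had 60.0 and 40.8 FPKM in the double mutant at 23 °C, against 14.6 and 13.3 FPKM in dis3-4 at 23 °C, with a log2 change of 1.76 (limma adjusted p = 0.0572). The mRNA of pho841 (SPBC1683.01) had 181 and 147 FPKM in the double mutant at 23 °C, against 79.5 and 49.6 FPKM in dis3-4 at 23 °C, a log2 change of 1.36 (limma adjusted p = 0.332). Its wild type values, 116 and 19.9 FPKM, enclose every library outside the double mutant. For pqr1 the log2 change was 0.75 (limma adjusted p = 0.225). The list of 6 phosphate acquisition genes, which holds no member, had 1 gene that rose in the same comparison and 0 that fell, with a median log2 change of 1.24.

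Among proteins of RNA and chromatin, the splicing factors prp11, prp10, spp42 and cyp9 were members. The mRNA of prp10, the fission yeast SF3B1, had 58.3 and 55.4 FPKM in the double mutant at 23 °C, against 25.1 and 34.0 FPKM in dis3-4 at 23 °C, a log2 change of 0.94 (limma adjusted p = 0.164). The exosome cofactor mpp6, the only member among 14 listed exosome subunits and cofactors, had 60.7 and 64.6 FPKM in the double mutant at 23 °C, against 51.8 and 38.6 FPKM in dis3-4 at 23 °C (log2 change 0.48, limma adjusted p = 0.568). At 30 °C it had 101 and 101 FPKM in the double mutant, against 46.5 and 68.5 FPKM in dis3-4. The chromodomain protein mRNA chp1 (SPAC18G6.02c), of the RITS complex that guides heterochromatin, had 32.8 and 28.5 FPKM in the double mutant at 23 °C, against 16.6 and 17.0 FPKM in dis3-4 at 23 °C, with a change of 0.83 (limma adjusted p = 0.386). The heterochromatin remodeller mit1, of the SHREC complex, had a change of 0.83 (limma adjusted p = 0.407).

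The other mRNAs with a large d have varied functions. The mRNA of fmt1 (SPAC1805.09c), which formylates the initiator methionyl-tRNA of mitochondria, had 59.1 and 65.2 FPKM in the double mutant at 23 °C, against 28.7 and 14.3 FPKM in dis3-4 at 23 °C, a log2 change of 1.57 (limma adjusted p = 0.0635). Its 10 libraries outside the double mutant lay between 14.1 and 28.7 FPKM, below all 4 of the double mutant. For the protein disulfide isomerase pdi4 the change was 0.81 (limma adjusted p = 0.281), for cfh1, similar to a chitin synthase regulator, 1.14 (limma adjusted p = 0.275), and for SPBC32F12.17, which matched no reference gene, 1.34 (limma adjusted p = 0.179). The G1 cyclin mRNA puc1 had 22.9 and 8.88 FPKM in the double mutant at 23 °C, against 9.47 and 10.8 FPKM in dis3-4 at 23 °C, so these groups overlap. The transcription factor mRNA SPAC2H10.01 likewise overlapped, with 103 and 96.3 FPKM in the double mutant, against 102 and 55.8 FPKM in dis3-4. For SPAC4G9.22, an uncharacterized protein, they were 26.2 and 28.6 FPKM in the double mutant, against 12.6 and 23.5 FPKM in dis3-4, with a change of 0.64 (limma adjusted p = 0.693). The gene alg11 of protein glycosylation had a change of 0.72 and the mitochondrial transcription factor mtf1 one of 0.49, neither of them called.

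The largest d value belonged to a gene listed at 0 in wild type. The small gene new14 (SPBC839.20), with a d of 4.24, had 11.1 and 24.7 FPKM in the double mutant at 30 °C and was listed at 0 in wild type and both single mutants. At 23 °C only replicate 1 of the double mutant held it, at 3.96 FPKM. A non-coding RNA, SPNCRNA.317, lies over it on the same strand with a d of 3.88, so their reads cannot be told apart. On the other strand rps1701 overlaps it, with means of 1547 FPKM in the double mutant at 30 °C and 1158 FPKM in wild type. The pheromone precursor gene mfm1 (SPAPB8E5.05), with a d of 1.98, had 11.9 and 7.82 FPKM in the double mutant at 23 °C, against 3.41 and under 0.05 FPKM in dis3-4 at 23 °C (log2 change 2.34, limma adjusted p = 0.191). The libraries labelled rrp6Δ had as much, 10.0 and 8.16 FPKM, and wild type had 0.62 and 2.53 FPKM. For 6 members both wild type libraries were under 0.05 FPKM: new14, noc12, rec15, otg2, SPBCPT2R1.10 and SPBPB2B2.07c. A value of 0 in files of this kind can be a failed estimate, so no fold is given for them. Of these, rec15 is overlapped on the other strand by SPBC1711.15c. That gene had means of 285 FPKM in the double mutant at 30 °C and 15.0 FPKM in wild type. The gene noc12 had 1.60 and 1.76 FPKM in the double mutant at 30 °C, and was listed at 0 in both of its libraries at 23 °C.

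The shift to 30 °C added little for most members. The median d was 1.02 in the double mutant at 23 °C, where 56 of 108 reached 1, against 7.80% of all mRNA IDs, and the median difference between 30 °C and 23 °C was 0.19. It was at least 1 for 4 members, new14, noc12, SPBCPT2R1.10 and otg2, each of which had 3.96 FPKM or less in both double mutant libraries at 23 °C. Both wild type and the double mutant at 30 °C were used by the choice, so these are descriptions.

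In dis3-4 alone the median d was near 0. At or below -0.5 were 13 members at 30 °C (12.0%), against 23.9% of all mRNA IDs, and 9 at 23 °C (8.33%), against 18.4%, and the values at 30 °C were used by the choice. Those at 30 °C included oca2, SPCC569.01c, sst1, SPBC1289.14, cgs1, mpr1, ppk1 and pho841, described above, and the neighbours SPAC186.04c and gdt1. For gdt1 (SPAC186.05c) the levels were 46.3 and 38.3 FPKM in the double mutant at 23 °C, against 11.2 and 7.98 FPKM in dis3-4 at 23 °C, with a log2 change of 2.04 (limma adjusted p = 0.0576). Wild type had 16.2 and 18.6 FPKM of it. The choice set no limit on dis3-4 at 23 °C. There 11 members (10.2%) had a d of at least 0.5, against 12.5% of all mRNA IDs, with grn1 the highest at 0.9996.

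In the libraries labelled rrp6Δ the members were called about as often as all features. With dis3-4 at 23 °C as the control, which is also the control of the comparison above, and with 32 °C against 23 °C as a difference that cannot be told apart from genotype, limma called 192 features higher (3.16%) and 63 lower (1.04%) of 6083. Of the 103 members tested 3 rose and 0 fell. Both libraries labelled rrp6Δ lay above both dis3-4 libraries for 45 of 108 members, against 38.1% of mRNA IDs with a mean of at least 1 FPKM. The 3 were oca2, with a log2 change of 1.54 (SE 0.27, limma adjusted p = 0.00797), SPCC569.01c, with 1.37 (SE 0.30, limma adjusted p = 0.0277), and SPAPJ691.02, which encodes a yippee-like protein. The last had 13.7 and 27.5 FPKM in the libraries labelled rrp6Δ, against 2.96 and under 0.05 FPKM in dis3-4 at 23 °C (log2 change 3.36, SE 0.67, limma adjusted p = 0.0163). The double mutant at 23 °C, with 15.0 and 8.44 FPKM, overlapped the libraries labelled rrp6Δ. Leaving out any 1 of the 4 libraries ended the call of SPCC569.01c (limma adjusted p = 0.1 to 0.175), and leaving out 1 of 3 of them ended that of oca2 (up to 0.0992) and of SPAPJ691.02 (up to 0.159). Against wild type, 13 members had a d of at least 1 in the libraries labelled rrp6Δ, against 8.40% of all mRNA IDs, with otg2, mfm1 and SPAPJ691.02 the highest. The member median there was 0.43, against 0.06 over all mRNA IDs. A d of at least 0.5 was reached by 44 members (40.7%), against 22.9% of all mRNA IDs. Wild type was used by the choice, so these values of d are descriptions.

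In the lists of known pathways members were counted beside their share of all mRNA IDs, 108 of 5169 or 2.09%. Of 14 listed genes of mating and pheromone response, 2 were members, mfm1 and the transcription factor map1. In the double mutant against dis3-4 at 23 °C 0 of the 12 tested rose and 1, mfm2, fell. Of 11 iron and heme genes 1 was a member, the siderophore transporter str2, with 3 that rose and 0 that fell. Of 12 genes of ribosome biogenesis 2 were members, rrp5 and mrd1, with 0 called and a median log2 change of 0.36. The 9 tested meiotic mRNAs removed by Mmi1 had 0 calls in that comparison and a median of 0.38, while 8 of them rose in the libraries labelled rrp6Δ against dis3-4 at 23 °C. The core environmental stress list, with no member, had 3 of 12 tested genes that rose and 0 that fell, and a median of 1.09.

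The median gene length of the members in the annotation was 2368 bases, against 1774 bases over all 5106 protein-coding genes, and 33.0% had more than 1 exon, against 48.4%. They were on all chromosomes, with 42 on I, 46 on II and 18 on III. Within 100000 bases of a chromosome end lay 5 of them (4.72%), against 3.70% of all. In 7 cases both genes of a neighbouring pair were members, among them SPBC660.17c with atg2, ppr10 with exo70, SPBC887.17 with hfi1, nop14 with rga1, rng2 with spp42 and SPAC186.04c with gdt1. Of the 7 pairs 5 run in the same direction, 1 is divergent and 1, SPBC887.17 with hfi1, is convergent with annotated overlap. No background for the number of pairs was computed. Features of the deposited table overlapped 39.6% of members on the other strand, against 52.6% of all protein-coding genes. A feature on the same strand overlapped 10 members (9.43%), against 10.4% of all protein-coding genes. These members included mpr1, oca2, nat1 and mpp6, and their FPKM could hold reads of another transcript. Whether counting was by strand is not stated, so the same could be true of members overlapped on the other strand.

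Most promoter motifs searched were about as frequent in members as in all genes. In the window of 250 bases before to 50 bases after the gene start, searched on both strands, TGACGT was found in 10 of 106 members (9.43%), against 5.91% of 5106 protein-coding genes. Besides cgs1 and SPBC1289.14 these included the transporter gene sod22, pqr1, pdr1 and pmp3. GTAAACA was found in 14.2% of members, against 16.5% of all genes, the heat shock element core GAANNTTC in 11.3% against 11.1%, and TATAAA, as in the SPBC1289.14 stretch printed above, in 49.1% against 48.1%. The hexamers TTAAAC and TCAAAC, to which Mmi1 binds in RNA, had 0.88 copies per 1000 bases in member transcripts, against 0.835 over all.

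Over the 6 libraries that did not choose the members, 67 of the 103 tested members had a Pearson correlation above 0.8 with the member mean, a description over groups that share libraries. The share of other features above 0.8 was not computed. Each of these members is also part of that mean, so the count does not show that the members are alike. The 5 genes outside the members most like that mean were och1 (r = 0.998), prp28 (r = 0.99), tef103 (r = 0.989), spd1 (r = 0.988) and SPNCRNA.732 (r = 0.988). The mannosyltransferase mRNA och1 had 59.4 and 43.1 FPKM in the double mutant at 23 °C, 27.3 and 18.4 FPKM in the libraries labelled rrp6Δ, and 15.9 and 11.4 FPKM in dis3-4 at 23 °C.

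The membership itself leans on wild type. Wild type replicate 2 was below replicate 1 for 93 of 108 members (86.1%), against 77.0% of mRNA IDs with a mean of at least 1 FPKM. Set against wild type replicate 1 alone, 37 of 108 members kept a d of at least 1 at 30 °C, with a median of 0.90. Set against replicate 2 alone, 106 did, with a median of 1.69, but 69 then reached 0.5 in rrp6-cat. Without replicate 1 the choice gave 71 mRNAs, 35 of them among the 108, and without replicate 2 it gave 88, 34 of them among the 108. Only 23 members met the limits with both, with replicate 1 alone and with replicate 2 alone, among them cgs1, sst1, SPBC1289.14, SPCC569.01c, mpr1, fmt1, gdt1 and pdi4. Of the 18 ribosome production members, only rrp1402 was among these 23. The log2 changes of the double mutant over dis3-4 at 23 °C do not involve wild type, but their p-values do, through the shared spread.

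**Figure D4:**
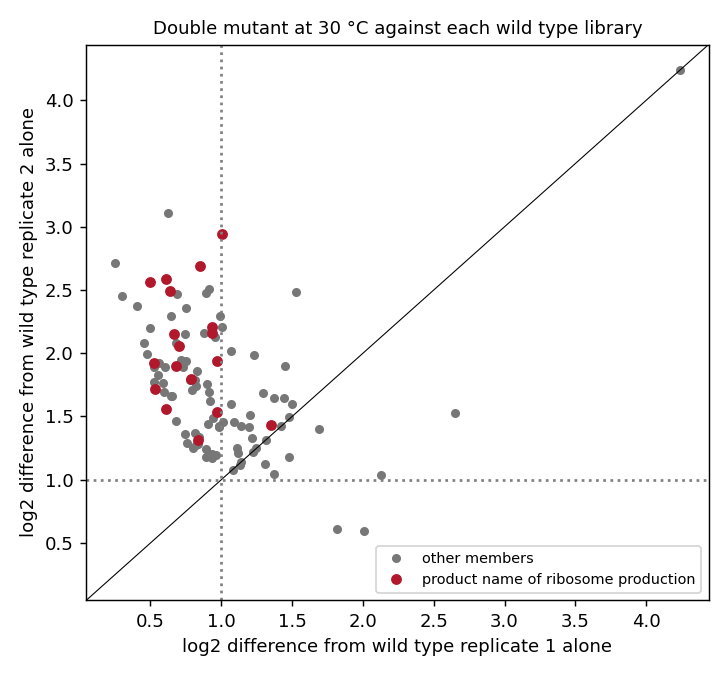
The log2 difference of the double mutant at 30 °C from wild type replicate 1 alone (across) and from replicate 2 alone (up), 1 point per member. Most points lie above the diagonal, the 37 members right of the dotted line keep a difference of at least 1 from replicate 1, and the ribosome production genes, in red, lie mostly to its left.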

How the data were processed

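The authors deposited FPKM for 7027 features in 14 polyA libraries. The submitters' processing notes name Cuffnorm, TopHat2 2.1.0, Bowtie2, Cufflinks 2.2.1 and build ASM294v2. The sources used here give no fragment totals, annotation or library scaling. FPKM were used as deposited, as log2(FPKM + 1), which understates changes of low genes. The 3 libraries with ligated 3′ ends and the replicate-combined table were not used. Features averaging 1 FPKM or more across the libraries, 6083 in all, were fitted with 7 group means in limma 3.58.1 (R 4.3.3, empirical Bayes with trend). The fit was tried on simulated data in which a feature had the same spread in every group. That trial cannot show how the fit handles the wider spread of wild type. Groups and comparisons of the 8 libraries used to choose members were described without a test. The members and gene lists were chosen with earlier results of these data known. The text names the 25 members with the largest d, those called, those at a limit, and genes of each role as examples chosen after their values were seen. Annotation, neighbours and promoters are from ASM294v3, matched by ID (6869 of 7027), without coordinates. Replicate numbers were not used as pairs. Replicate deviations correlated at -0.15 to 0.31 between groups, over 0.1 in 5 of 21 pairs of groups, which does not settle whether the numbers pair the libraries.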

Additional observations from a re-analysis of the deposited data

How the results depend on the processing

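The number of members, 108 as described, was 117 with 0.1 and 84 with 5 added before the log, 12 at a d of at least 1.5, 39 with the single mutants under 0.25, 69 with median-ratio size factors and 69 with quantile normalization, and 71 to 146 with 1 library left out. In the double mutant against dis3-4 at 23 °C, 60 features and 7 members were called. With 5 added before the log there were 91 and 13, with size factors 95 and 14, and with quantile normalization 102 and 15. A replicate block gave 90 and 9, though it is not settled whether the numbers pair the libraries. With 1 library left out it was 10 to 20 features and 1 to 3 members; the lone library is then assumed to vary like the other groups. The log2 change then ranged from -0.17 to 1.11 for puc1, negative without double mutant replicate 1, and from -0.029 to 0.82 for SPAC2H10.01, negative without dis3-4 replicate 2; the cause was not tested. For the libraries labelled rrp6Δ against dis3-4 at 23 °C, 255 features and 3 members became 71 to 129 and 0 to 2 with 1 library left out, and 5 members were called using only the 6 libraries outside the choice. As deposited, all features shift by 0.10 in the first comparison, 0.00 with size factors and -0.03 with quantile normalization, and the member median is 0.82, 0.71 and 0.66 in that order. Depth limits low genes: the median member had an estimated 20.0 fragments in wild type replicate 2.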
